A study of Mus musculus with 2 samples.

Results

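The cells described here are the islet macrophages highest in a summed score of 5 genes, Il12b, Cd207, Mmp13, Itgb8 and Hs3st3a1. Cells with at least 200 genes, at most 10% mitochondrial UMIs (unique molecular identifiers, 1 per counted RNA molecule), at least 5000 RNA UMIs and at least 2000 CPM (UMIs per 1000000 RNA UMIs of the cell) of the complement genes C1qa, C1qb and C1qc together were gated as macrophages. The 10% of them with the highest summed CPM of the 5 genes were taken, 171 of 1706 gated macrophages and of 2237 barcodes in all, and the other 1535 gated macrophages served as the comparison. They came from pancreatic islets of C57BL/6J male mice labelled WT, with no treatment named. Islet cells of 6 to 8 mice were pooled before live DAPI- Epcam- CD45+ cells were sorted, stained with barcoded antibodies against CD9 and CD206 and sequenced as 1 sample, read as an mRNA and an antibody library. No mouse can therefore be told from another, and every interval below is a 95% interval that covers counting error only.

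Interleukin 12 and interleukin 23 are secreted by activated macrophages and dendritic cells as pairs that share the p40 subunit encoded by Il12b, and each needs a partner subunit, encoded by Il12a or Il23a. Mmp13 encodes collagenase 3, which cuts fibrillar collagen, and Itgb8 encodes the integrin subunit that pairs with the alpha v subunit to release active TGF-beta from its latent complex. Cd207 encodes langerin, a C-type lectin known as the marker of Langerhans cells of the skin and of a class of dendritic cells, and Hs3st3a1 encodes an enzyme that adds sulfate to heparan sulfate chains. Resident macrophages are the main immune cells of the mouse islet and lie along its vessels, next to the endocrine cells.

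The chosen cells held macrophage genes that neither the gate nor the score used. The macrophage receptor gene Adgre1 stood at 390.4 CPM in the chosen macrophages and 354.6 CPM in the other gated macrophages, and Csf1r, the receptor gene for the growth factor that macrophages need, at 300.4 and 333.6 CPM. Flt3 and Zbtb46, which define conventional dendritic cells, stood at 0.275 and 5.51 CPM in the chosen macrophages, against 117 and 149.8 CPM in 71 sorted cells low in C1q and high in MHC class II genes. Depth was nearly equal, with a median of 20813 RNA UMIs in a chosen macrophage and 20987 in another gated macrophage, and so was the median mitochondrial share, at 1.31% and 1.38%. The label fits Mmp13 better than the other genes it names: of the 171 chosen macrophages 153 (89.5%) held a UMI of Mmp13, 84 (49.1%) of Cd207 and 67 (39.2%) of Il12b, and 27 (15.8%) held all 3. The name is therefore used below only as the 5-gene score.

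The score is a continuous range with no gap at its boundary. The lowest scores among the chosen macrophages were 2550.1 and 2563 CPM, and the highest among the others 2546 and 2538 CPM. Within 10% of the boundary lay 61 gated macrophages. The score had a median of 3793 CPM in the chosen macrophages (2550.1 to 18881) and of 316 CPM in the others (0 to 2546), and 252 of the others scored 0.

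Since the 5 genes chose the cells, their levels are a description. Mmp13 stood at 2564 CPM in the chosen macrophages and 220.5 CPM in the others, and its level in a single chosen cell had quartiles of 687, 2594 and 3737 CPM and a maximum of 12693 CPM. Il12b stood at 1099.5 and 52.0 CPM, but the median chosen cell held no Il12b UMI, 1 in 10 held at least 2913 CPM and the maximum was 13819 CPM. Cd207 stood at 333 CPM in the chosen macrophages and 80.6 CPM in the others, Itgb8 at 567 and 211 CPM, and Hs3st3a1 at 60.3 and 19.98 CPM. Mmp13 and Itgb8 were thus spread over most chosen cells, whereas Il12b and Cd207 were concentrated in a minority. Itgb8 did not set the chosen cells apart from the 170 gated macrophages next below the boundary, where it stood at 564 CPM. Mmp13 stood there at 926 CPM, Il12b at 220 CPM, Cd207 at 198 CPM and Hs3st3a1 at 40.2 CPM, each under its level in the chosen macrophages.

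Mmp13 gave 55.5% of the score UMIs of the chosen macrophages, Il12b 23.8%, Itgb8 12.3%, Cd207 7.19% and Hs3st3a1 1.30%. Accordingly Mmp13 led the score in 113 cells (66.1%), Il12b in 30 (17.5%), Itgb8 in 18 (10.5%) and Cd207 in 10 (5.85%), and Hs3st3a1 in 0 of 171, which allows a share of up to 1.75%. At least 1000 CPM of Mmp13 were held by 123 chosen macrophages, as much Il12b by 39, and both by 12. The cells were chosen by the sum of these genes, so these counts are a description of the choice. All 5 genes were detected in 15 chosen macrophages (8.77%) and 8 others (0.521%). Across the 1706 gated macrophages, which share 1 library, the 10 pairs of score genes had Spearman correlations of 0.040 to 0.200, too weak in counts this sparse to be a finding.

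**Figure D1:**
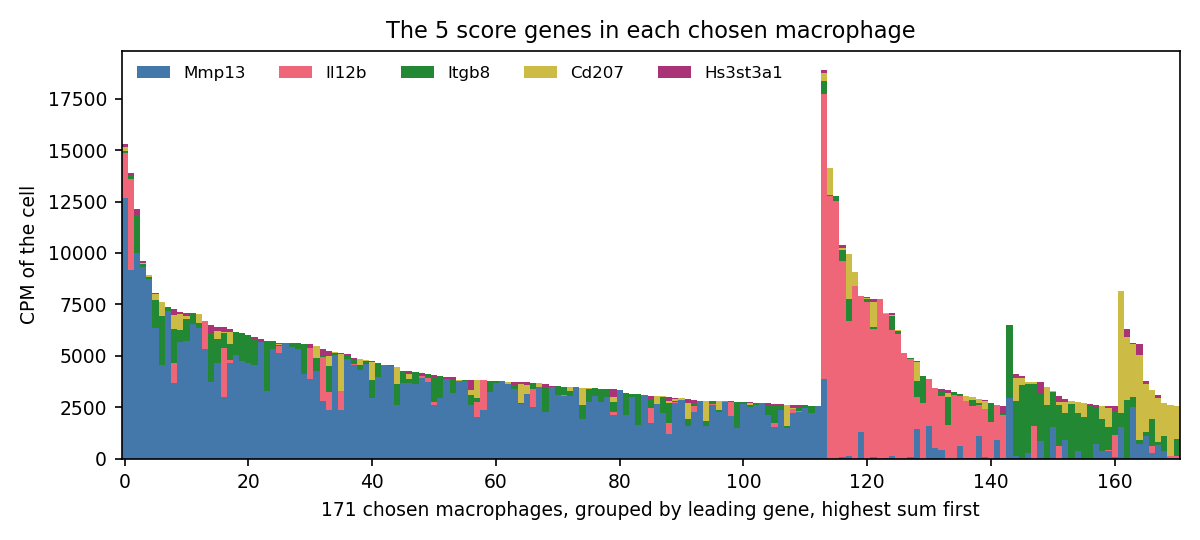
Each bar is 1 of the 171 chosen macrophages, and its height is the CPM of the 5 score genes in that cell, stacked by gene; cells are grouped by the gene with the most CPM and ordered by the sum. Mmp13 leads in 113 cells, Il12b in 30, Itgb8 in 18 and Cd207 in 10.

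The stretches upstream of Mmp13, Il12b and Cxcl1 are shown because the first 2 genes lead different chosen cells, and Cxcl1 is a chemokine gene that the score did not use and is described next. Each line gives the 250 bases before the annotated transcription start in RefSeq's GRCm38.p6, 5′ to 3′ on the gene's strand. Capitals mark matches to the AP-1 motif TGANTCA and to the NF-kB-type motif GGGNNNTTCC, searched on both strands.
Mmp13, chr9:7272264-7272513, plus strand: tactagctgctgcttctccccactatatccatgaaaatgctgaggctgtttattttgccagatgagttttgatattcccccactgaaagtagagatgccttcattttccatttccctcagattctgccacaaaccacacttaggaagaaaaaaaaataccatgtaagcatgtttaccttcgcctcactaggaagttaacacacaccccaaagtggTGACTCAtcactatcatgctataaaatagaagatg
Il12b, chr11:44399813-44400062, plus strand: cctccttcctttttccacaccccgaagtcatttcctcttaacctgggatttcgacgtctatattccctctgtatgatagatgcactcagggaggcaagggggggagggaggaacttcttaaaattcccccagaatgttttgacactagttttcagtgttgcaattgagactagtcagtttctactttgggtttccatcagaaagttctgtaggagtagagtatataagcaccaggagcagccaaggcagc
Cxcl1, chr5:90890995-90891244, plus strand: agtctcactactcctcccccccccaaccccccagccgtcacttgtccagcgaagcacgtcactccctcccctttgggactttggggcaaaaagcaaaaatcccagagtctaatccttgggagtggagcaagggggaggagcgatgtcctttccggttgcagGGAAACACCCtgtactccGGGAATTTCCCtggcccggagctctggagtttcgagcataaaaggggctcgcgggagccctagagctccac
The Mmp13 stretch holds 1 AP-1 match, whose first base lies at -35. The Cxcl1 stretch holds 3 NF-kB-type matches, at -89, -71 and -70, of which the last 2 overlap, and the Il12b stretch holds no match to either motif. Among the score genes whose stretches are not shown, Cd207 holds 1 AP-1 match, at -7, and Itgb8 and Hs3st3a1 hold no match to either motif. Of 32851 promoters of the same length, 6.75% hold an AP-1 match and 4.65% an NF-kB-type match.

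Each score gene was next read in cells chosen by the other 4 genes alone. Hs3st3a1 was then 2.63-fold higher (2.23 to 3.08), at 54.2 CPM in the cells so chosen and 20.7 CPM in the rest. Il12b was 1.95-fold higher (1.82 to 2.09), at 275.3 and 141.1 CPM, Cd207 1.95-fold higher (1.79 to 2.11), at 187.2 and 96.2 CPM, and Mmp13 1.82-fold higher (1.74 to 1.89), at 755.5 and 415.5 CPM. Itgb8 was 1.40-fold higher (1.32 to 1.49), at 331 and 236.4 CPM. Each gene was thus higher where the other 4 were high. For Il12b, Cd207, Mmp13 and Itgb8 the ratio was well under that in the cells they had helped to choose (21.1, 4.13, 11.6 and 2.69). For Hs3st3a1 it was close to that ratio (3.02, 2.58 to 3.52), and the intervals overlapped. Leaving Hs3st3a1 out kept 165 of the 171 cells, so its 2 ratios came from nearly the same cells and their closeness is no finding. Without Mmp13 in the score 83 of the 171 cells (48.5%) stayed among those chosen, and without any 1 of the other genes 141 to 165 did.

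The score genes were also read in cells outside the macrophage gate. In the 71 C1q-low, MHC class II-high cells Mmp13 stood at 75.2 CPM, Il12b at 53.5 CPM, Cd207 at 47.8 CPM and Itgb8 at 34.7 CPM, each under its level in the chosen macrophages, and Hs3st3a1 had 0 UMIs. The level of Il12b there was close to the 52.0 CPM of the other gated macrophages. After every cell was thinned to 5000 UMIs, Il12b was found in 32.7% of chosen macrophages (25.8 to 40.3%), 7.30% of other gated macrophages, 5.63% of the class II-high cells and 0 of 113 lymphoid cells, which allows a share of up to 2.65%. Mmp13 was found in 81.9, 29.6, 12.7 and 2.65% of the same 4 classes, where Il12b before thinning had 39.2, 13.4, 8.45 and 0% and Mmp13 89.5, 45.9, 21.1 and 6.19%. Free RNA in the suspension was read from lymphoid cells, at median depth 9647 UMIs: C1qa stood at 25.7 CPM there, Mmp13 at 5.81 CPM and Itgb8 at 9.13 CPM, so the levels in both groups of macrophages lay far above it.

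Across 8506 genes with at least 200 UMIs in both groups together, 202 were at least 1.5-fold higher in the chosen macrophages (2.37%) and 649 at least 1.5-fold lower (7.63%). The median log2 ratio was -0.07, and 9 in 10 genes had a ratio of 0.609 to 1.36. These shares are the background for the lists below, whose counts are of genes past 1.5-fold in either direction; with 1 sample they carry no test.

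CC chemokine genes had the highest median among the lists with at least 6 genes compared. Of 9 CC chemokine genes compared, 4 were higher and 0 lower, with a median log2 ratio of 0.55. Ccl7 and Ccl12, which encode attractants of monocytes that carry the receptor CCR2, were 5.45-fold (4.88 to 6.09) and 3.27-fold higher (2.88 to 3.72), at 142 and 90.8 CPM in the chosen macrophages against 26.0 and 27.8 CPM in the others. They rested on few cells. Ccl7 had a UMI in 23 chosen macrophages (13.5%) and 157 others (10.2%), and 1 chosen cell held 39.0% of the group's Ccl7 UMIs; without it the ratio was 3.36. A single cell also held 30.9% of the Ccl12 UMIs of the group, and without it the ratio was 2.28. Ccl4, which encodes an attractant of macrophages and T cells, was found in nearly all cells, with a median of 2287 CPM in a chosen macrophage and 893 CPM in another, and was 1.54-fold higher by sum (1.52 to 1.57). Ccl9 was 1.58-fold higher, while Ccl2, Ccl3, Ccl5 and Ccl6 had ratios of 1.13 to 1.47. With Mmp13 left out of the score, a choice made after the data were seen, Ccl7 was still 2.34-fold higher, but Ccl12 (0.432), Ccl4 (0.872) and Ccl9 (0.935) were not higher in the cells so chosen.

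Cxcl1, which encodes an attractant of neutrophils and was listed with the score genes as a marker without being part of the score, stood at 305.0 CPM in the chosen macrophages and 114 CPM in the others, a ratio of 2.68 (2.51 to 2.87). It was detected in 58 chosen macrophages (33.9%) and 268 others (17.5%), and after thinning in 20.5 and 10.7%. The median cell of either group held none, and the highest chosen cell, with 354 Cxcl1 UMIs and all 5 score genes, held 31.9% of the group's total. Without it the ratio was 1.84, and with Mmp13 left out of the score it was 1.91. Of 7 CXC chemokine genes compared 1 was higher, Cxcl1, and 1 lower, Cxcl14 (0.538, at 10.2 CPM in the chosen macrophages and 18.9 CPM in the others), with a median log2 ratio of 0.15. Cxcl2, the most abundant of them, differed little, at 3859 and 3561 CPM.

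Some cytokine genes were higher as well. Of 14 genes of the IL-12 family and regulatory cytokines compared, 6 were higher, 0 lower and 8 neither, with a median log2 ratio of 0.50. Tnf, the gene of tumour necrosis factor, was detected in 163 chosen macrophages (95.3%) and 1343 others (87.5%), with medians of 513 and 232 CPM in a cell, and was 1.95-fold higher by sum (1.88 to 2.03). Il10, which encodes a cytokine that restrains inflammation, was 1.95-fold higher (1.79 to 2.13), at 170 CPM in the chosen macrophages and 86.9 CPM in the others. Tnfsf9, the gene of the T cell costimulator 4-1BB ligand, was 2.64-fold higher (2.33 to 2.995), Il1a, an IL-1 family cytokine gene, 1.91-fold (1.80 to 2.03), Ebi3, the gene of the shared subunit of IL-27, 1.58-fold and Il15 1.57-fold. Tnfsf9 had a UMI in a minority of either group, 47 chosen macrophages (27.5%) and 305 others (19.9%). Il1b and Il6 had ratios of 1.26 and 1.34, and Osm of 0.697. The call for Tnf held without Mmp13 (1.57) or Il12b (1.60) in the score, those for Il10 and Il1a were lost without Mmp13 (1.36 and 1.28), and that for Tnfsf9 was lost without Il12b (1.44).

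The partner subunits of p40 were hardly detected. Il12a had 0 UMIs in all 1706 gated macrophages, which for the chosen ones allows up to 0.826 CPM. Il23a had 9 UMIs in the chosen macrophages (2.48 CPM) and 47 in the others (1.39 CPM), a ratio of 1.78 whose interval of 0.766 to 3.67 includes 1. Il12a and Il23a also had 0 UMIs in the 71 C1q-low, MHC class II-high cells and in the 113 lymphoid cells. The lack of Il12a thus did not set the macrophages apart, and its cause was not tested. At this depth Il12b RNA was therefore seen with next to no RNA of a partner.

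Genes of NF-kB subunits and feedback inhibitors were higher in 4 of 22 compared and lower in 0, with a median log2 ratio of 0.32. Tnip3, which encodes an inhibitor induced by NF-kB, was 1.80-fold higher (1.74 to 1.87), at 1029 CPM in the chosen macrophages and 571 CPM in the others. Nfkbiz, whose product is needed for a set of secondary response genes, was 1.64-fold higher, Tnfaip2 1.62-fold and Tnfaip3, the gene of the A20 inhibitor, 1.52-fold. None of these 4 genes passed 1.5-fold without Il12b in the score, nor did Tnfaip2 and Tnfaip3 without Mmp13. Tnfaip3 passed it in 14 of 20 settings. Among 20 genes of Toll-like receptors and their adaptors 1 was higher, Tlr3 (1.81, at 13.5 and 7.44 CPM), and 1 lower, Irak3 (0.611, at 9.91 and 16.2 CPM). Interferon-stimulated genes were higher in 6 of 21 compared and lower in 0, with a median log2 ratio of 0.28. They included Gbp2 (1.79), Cmpk2 (1.72), Gbp5 (1.61) and Rsad2 (1.51, at 1601 CPM in the chosen macrophages and 1059 CPM in the others), and the other 2 were Isg20 (1.54) and Irf1 (1.54), while Isg15, Ifit1 and Ifit2 had ratios of 1.08 to 1.18. Without Mmp13 in the score Cmpk2 (0.625), Gbp5 (0.924) and Rsad2 (0.655) were not higher in the cells so chosen, and Tnip3 (1.46) and Gbp2 (1.32) did not pass 1.5-fold; Rsad2 passed it in 11 of 20 settings.

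Genes of the other molecules through which macrophages meet T cells were split. Of 15 genes of MHC class II and costimulation 4 were higher: Cd40 (1.71, 1.61 to 1.81), the gene of the receptor for T cell help, Ciita (1.67), the gene of the class II transactivator, Icosl (1.66) and Cd274 (1.57), which encodes PD-L1. The class II genes themselves were close to even, with H2-Aa, H2-Ab1, H2-Eb1 and Cd74 at ratios of 1.03 to 1.06, and H2-DMb2 was lower (0.573). Of 13 genes of C-type lectin receptors besides Cd207, Clec2d (1.60) and Clec5a (1.56) were higher and Clec4n, which encodes dectin-2, lower (0.492, at 17.6 and 35.9 CPM). Cd40 did not pass 1.5-fold without Mmp13 in the score (1.33), nor Ciita without Il12b (1.38), and Cd274 passed it in 12 of 20 settings, with a ratio of 0.945 by mean rank.

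The lists that share a function with Mmp13, Itgb8 and Hs3st3a1 were read next. Of 11 genes of matrix metalloproteinases, related sheddases and their inhibitors besides Mmp13, 2 were higher and 2 lower, with a median log2 ratio of -0.06. Mmp12, the gene of macrophage elastase, was 1.65-fold higher (1.63 to 1.68), with a median of 5659 CPM in a chosen macrophage and 2860.2 CPM in another, and was detected in 169 chosen macrophages (98.8%) and 1452 others (94.6%); without Mmp13 in the score its ratio was 1.32. Mmp10 had a ratio of 5.47, but 1 chosen cell held 33.2% of its UMIs in both groups together, and without that cell the ratio was 0.579. Mmp19 (0.200, at 1.38 and 6.88 CPM) and Adam8 (0.617) were lower. Of 17 genes of TGF-beta activation and response besides Itgb8, 0 were higher and 3 lower: Thbs1 (0.241, at 8.81 and 36.5 CPM), which encodes another activator of latent TGF-beta, the inhibitor gene Smad7 (0.563) and the ligand gene Tgfb3 (0.470). Itgav, the gene of the partner of Itgb8, had a ratio of 1.49 and Tgfbr1, a receptor gene, of 1.41. None of 14 heparan sulfate genes besides Hs3st3a1 passed 1.5-fold either way, with a median log2 ratio of 0.14, and Hs3st3b1, which encodes a closely related enzyme, had 3 UMIs in the chosen macrophages and 25 in the others.

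**Figure D2:**
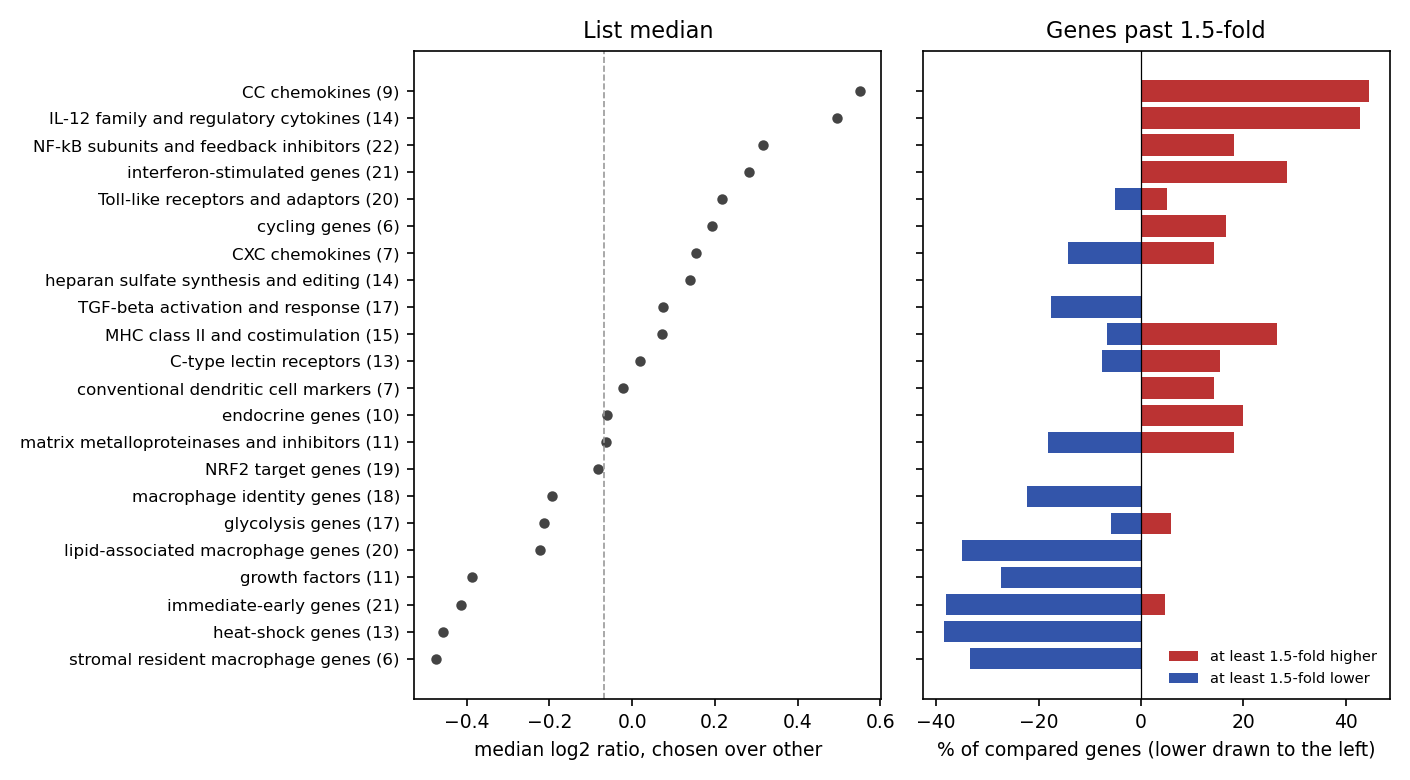
The left panel gives the median log2 ratio of each gene list with at least 6 genes compared, chosen over other gated macrophages, with the median of all 8506 genes as the dashed line, and the right panel the percentage of the list's compared genes at least 1.5-fold higher or, drawn to the left, lower; the number of compared genes is in brackets. CC chemokines (median 0.55) and IL-12 family and regulatory cytokines (0.50) stand at the top, and immediate-early (-0.41), heat-shock (-0.46) and stromal resident macrophage genes (-0.47) at the bottom.

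The 15 genes with the firmest higher ratios over all genes held chemokine and cytokine genes already named, and others of unlike function. Rapgef2, which encodes an exchange factor for the small GTPase Rap1, was detected in all 171 chosen macrophages, with medians of 1014 CPM in a chosen macrophage and 515 CPM in another, and was 1.89-fold higher by sum (1.83 to 1.96). Rnf180, a ubiquitin ligase gene, was 2.14-fold higher (2.06 to 2.23), at 869 CPM in the chosen macrophages and 405.4 CPM in the others, and Bcl2l1, the gene of the survival protein BCL-XL, 1.93-fold (1.81 to 2.06), at 317 and 164 CPM. These 3 were higher in the bulk of the cells rather than in a few. Ch25h, the gene of an enzyme that makes 25-hydroxycholesterol, was 2.28-fold higher, H2-M2, an MHC class I-like gene, 2.29-fold, St5 2.27-fold, Trpm4, the gene of a cation channel opened by calcium, 2.56-fold, Gm34589 2.80-fold and Cd69, an activation marker gene, 2.04-fold. Cd69 also rested partly on 1 chosen cell with 18.6% of the group's UMIs, without which its ratio was 1.67. H2-M2 had a UMI in few cells of either group, 31 chosen macrophages (18.1%) and 253 others (16.5%). The ratio of H2-M2 was 1.33 without Il12b in the score, and those of Cd69 and Ch25h were 1.08 and 1.39 without Mmp13.

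**Figure D3:**
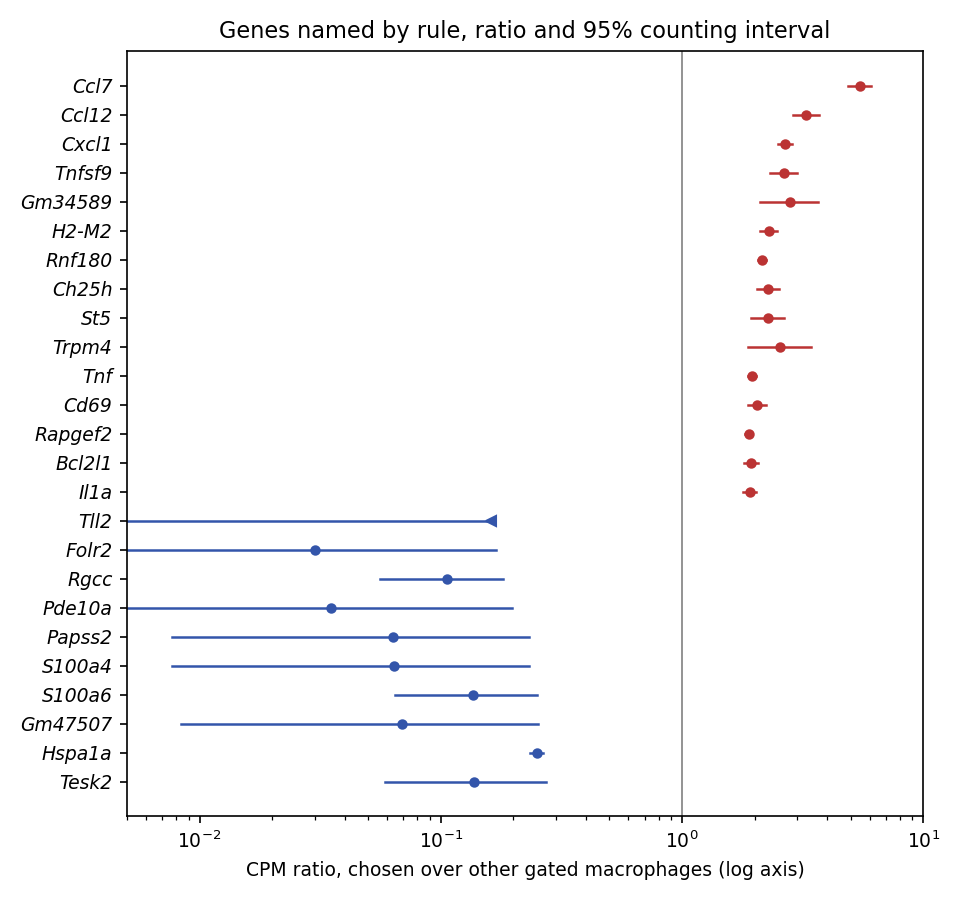
Points are CPM ratios, chosen over other gated macrophages, on a log axis with 95% counting intervals for the 15 higher (red) and 10 lower (blue) genes named by rule; intervals are cut off at the left edge, and the triangle for Tll2, which had 0 UMIs in the chosen macrophages, marks its upper interval bound. The higher genes lie between Tnf, Rapgef2, Bcl2l1 and Il1a near 2 and Ccl7 at 5.45, and the lower genes at 0.250 or below.

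The firmest lower genes were mostly scarce ones carried by few cells. Folr2, which encodes folate receptor beta and marks stromal resident macrophages, had 1 UMI in the chosen macrophages and 309 in the others (ratio 0.0300, 0.000758 to 0.169), of which 1 other cell held 42.6%; without that cell the ratio was 0.0524, and in 4 of the 20 settings described in the closing section Folr2 was higher in the chosen cells (3.02 to 8.69). Tll2 had 0 and 213 UMIs, at least 7.65-fold lower when 3 UMIs stand for the group with 0. Rgcc, a cell cycle regulator gene, had a ratio of 0.106, Papss2, the gene of an enzyme that makes the sulfate donor, 0.0636, the calcium-binding protein genes S100a4 and S100a6 0.0638 and 0.136, Tesk2 0.137, Gm47507 0.0693 and Pde10a, the gene of a cyclic nucleotide phosphodiesterase, 0.0350. In Pde10a and Tesk2 1 other cell held 28.9 and 26.9% of the UMIs, and without it the ratios were 0.0493 and 0.188.

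Hspa1a was the abundant one among them. It encodes an inducible HSP70 chaperone and stood at 292 CPM in the chosen macrophages and 1165 CPM in the others, a ratio of 0.250 (0.235 to 0.266); its near-identical neighbour Hspa1b, whose reads can be mistaken for it, stood at 328 and 1251 CPM. Hspa1a was detected in 68 chosen macrophages (39.8%) and 836 others (54.5%), and the highest cell held 4072 CPM in the chosen group and 18676 CPM in the others. Of 13 heat-shock genes 0 were higher and 5 lower, with a median log2 ratio of -0.46; Bag3 (0.451) and Dnajb1 (0.476), which encode partners of HSP70, were among the 5. Immediate-early genes, which encode transcription factors and others induced within a short time of stimulation, were lower in 8 of 21 compared and higher in 1: Jun stood at 55.9 CPM in the chosen macrophages and 156 CPM in the others (0.359, 0.310 to 0.413), Fosb had a ratio of 0.400, Klf4 of 0.304 and Klf2 of 0.291, and the phosphatase gene Dusp2 of 1.63. Among cells under the median of 4 heat-shock genes alone, a choice made after the data were seen, which kept 105 of the 171 chosen macrophages, Jun had a ratio of 0.892 and Klf4 of 1.24, Hspa1a and Hspa1b being among the genes that chose those cells. Genes that did not pass 1.5-fold there also included Cd40 (1.41), Ciita (1.33), Cd274, Ccl9, Tlr3, Clec2d, Dusp2, Gbp5, Areg, Igf1, Hgf and Smad7, while Cxcl1, Tnf and Ccl7 did. Without the cells highest in heat-shock RNA, also a choice made after the data were seen, Jun had a ratio of 0.553. Genes that did not pass 1.5-fold in that setting included Cmpk2, Rsad2, Gbp5, Ccl9, Tlr3, Cd274, Clec2d, Bag3 and Dnajb1. Cxcl1 (3.05) and Tnf (2.08) did pass it. The part of heat-shock RNA in the other differences was not tested beyond these settings.

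Lipid-associated macrophage genes were lower in 7 of 20 compared and higher in 0, with a median log2 ratio of -0.22. Spp1, the gene of osteopontin, stood at 32.5 CPM in the chosen macrophages and 119.7 CPM in the others (0.271, 0.224 to 0.326), Gpnmb had a ratio of 0.268, the lipid transfer gene Pltp of 0.387 and Fabp5, a fatty acid carrier gene, of 0.481. Of 18 macrophage identity genes 4 were lower and 0 higher, among them Itgam (0.441, at 14.6 and 33.1 CPM), Trem2 (0.548) and Mertk (0.587). Of 11 growth factor genes 3 were lower and 0 higher: Areg (0.398), Igf1 (0.502) and Hgf (0.609). None of 19 NRF2 target genes, which hold the antioxidant genes, passed 1.5-fold either way, with a median log2 ratio of -0.08. Glycolysis genes were nearly as even, with Hk2, the gene of an inducible hexokinase, higher (1.68) and Eno1 lower (0.640) of 17.

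Markers of other cells were few and mostly lower in the chosen macrophages. Stromal resident macrophage genes summed to 108 CPM in the chosen macrophages and 142 CPM in the others, with Folr2 and Timd4 lower of 6 compared and Cd163, Lyve1, Cbr2 and F13a1 at 0 of 11 listed in the chosen ones. Timd4 had a ratio of 0.0825, and of 0.128 without 1 other cell that held 35.2% of its UMIs, but of 1.56 to 3.73 with 20% of cells chosen, with the score as a mean rank or without Mmp13 in the score. The 10 monocyte markers summed to 16.0 and 49.6 CPM, with Chil3, Ace and Ly6c2 among those at 0 in the chosen macrophages and Ccr2 at 6.88 and 31.1 CPM (0.221, 0.143 to 0.329). The 10 neutrophil markers summed to 31.7 and 50.5 CPM, with 5 at 0 and Csf3r lower (0.6004), the 14 T cell and NK cell markers to 3.30 and 15.4 CPM, with 11 at 0, and the 8 B cell markers to 90.6 and 109.0 CPM, with 3 at 0. Conventional dendritic cell markers summed to 362 CPM in the chosen macrophages and 308 CPM in the others, with Kit and Cd209a at 0 of 18 and 1 of 7 compared higher, Il4i1 (2.08, at 15.7 and 7.53 CPM). Langerhans cell markers besides Cd207 summed to 577 and 364 CPM, nearly all of it Dcstamp (564 and 343 CPM, 1.64), which encodes a fusion protein of myeloid cells; Il34 was at 0, and Epcam had 8 UMIs in the chosen macrophages. Endocrine genes summed to 3193 and 3389 CPM, acinar genes to 0.551 and 1.30 CPM, with 10 of 12 at 0, and endothelial and stromal markers to 13.5 and 17.2 CPM. Among the endocrine genes the hormone genes Ppy (1.97) and Pyy (1.71) were higher, with 37.4 and 44.1% of their UMIs in 1 of the other cells, without which the ratios were 3.604 and 3.57, and both had ratios under 1 in several settings of the closing section. Of 6 cycling genes compared 1 was higher, Stmn1 (1.80), whose ratio was 0.539 without Mmp13 in the score and 0.994 with 20% of cells chosen. The part of these markers in the results was not tested beyond the settings given in the closing section, among them one without the 87 gated macrophages that carried stromal macrophage or monocyte RNA, 1 of which was chosen.

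Surface CD9 was lower on the chosen macrophages. The antibody tags were counted in a separate library from these 15-base barcodes, shown because they carry the 2 protein readouts.
CD9 antibody tag: tagcagtcactccta
CD206 antibody tag: tcaactcggtgttgc
A chosen macrophage carried a median of 341 CD9 UMIs (quartiles 47.5 and 1282, range 7 to 10069), against 709 for another gated macrophage (quartiles 103.5 and 2531.5, range 2 to 37469). The ranges overlapped widely: 63 of the 171 chosen macrophages (36.8%, 29.6 to 44.5%) lay above the median of the others, and when all gated macrophages were cut into 3 equal parts by CD9, 36 (21.1%) fell in the highest part and 73 (42.7%) in the lowest. The ratio of means was 0.550 (0.548 to 0.553), with means of 1047 and 1902 UMIs, and lymphoid cells had a median of 55. The mRNA showed the same direction, with Cd9 at 145 CPM in the chosen macrophages and 226 CPM in the others (0.641, 0.585 to 0.700). CD206 was low throughout, with medians of 7 UMIs in the chosen macrophages and 9 in the others and a ratio of means of 0.510 (0.489 to 0.532), which was 0.604 without 1 other cell that carried 6365 UMIs. Mrc1, which encodes CD206, stood at 22.3 and 32.7 CPM (0.682, 0.537 to 0.855).

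Along the score, in 10 bins of about equal size, the genes followed different courses. Mmp12 climbed over the range, from 1783 CPM in bin 1 through 4489 CPM in bin 5 to 7016 CPM in bin 10, which holds the chosen macrophages. The 4 heat-shock genes Hspa1a, Hspa1b, Dnajb1 and Hsph1 together lay between 4659 and 5135 CPM in bins 1 to 4, then stepped down to 2982 CPM in bin 5 and 1214 CPM in bin 10. Ccr2 went down from 67.5 CPM in bin 1 to 28.5 CPM in bin 5 and 6.88 CPM in bin 10. These courses were spread over the score and were not set apart at its top.

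The chemokine genes did not follow the score in this way. Cxcl1 lay between 41.2 and 147 CPM in bins 1 to 8 and was as high in bin 9 (308 CPM) as in bin 10 (305.0 CPM). Ccl7 lay between 13.03 and 49.0 CPM in bins 1 to 9 and reached 142 CPM in bin 10, and Ccl12 had 65.0 CPM in bin 8, 24.2 CPM in bin 9 and 90.8 CPM in bin 10. Tnf lay between 357 and 575 CPM in bins 1 to 9 and reached 853 CPM in bin 10. Il10 stood at 155 CPM in bin 9 and 170 CPM in bin 10, and Il1a at 307 and 332 CPM. For both genes the cells just below the boundary were thus nearly as high as the chosen ones. Median CD9 antibody UMIs were 1175 and 1438 in bins 1 and 2, between 369.5 and 786 in bins 3 to 9 and 341 in bin 10, while median RNA depth stayed between 19139 and 22564 UMIs.

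**Figure D4:**
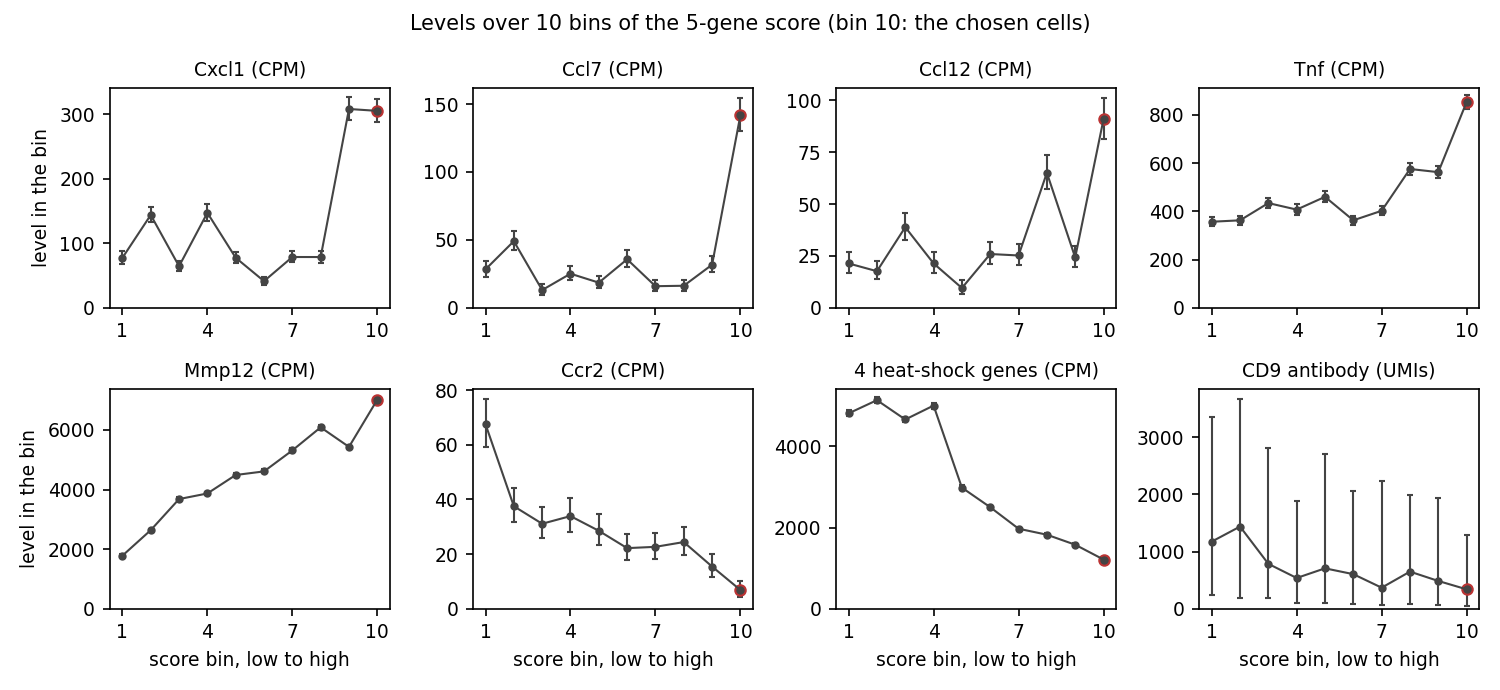
Levels over 10 bins of gated macrophages ordered by the 5-gene score, 170 or 171 cells each, with the chosen macrophages as bin 10 (ringed in red); bars are 95% counting intervals of CPM, and for the CD9 antibody the quartiles over cells around the median. Mmp12 climbs and Ccr2 and the heat-shock genes go down over the range, whereas Ccl7 stands out in bin 10 and Cxcl1 is equally high in bins 9 and 10.

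The chosen macrophages were then split by the gene that leads their score, a choice made after the data were seen. The 30 Il12b-led cells held more Tnfsf9 than the 113 Mmp13-led cells, at 254 and 51.5 CPM (ratio 4.92, 3.89 to 6.25), against 33.5 CPM in the other gated macrophages. H2-M2 showed the same order, at 425, 146 and 87.1 CPM in Il12b-led, Mmp13-led and other gated macrophages, as did Nfkbiz at 509, 180 and 147 CPM, Ebi3 at 156, 57.6 and 46.2 CPM, Ciita at 218, 114 and 77.4 CPM, Tnf at 1316, 794 and 437 CPM and Cd40 at 536, 344 and 207 CPM. The Mmp13-led cells were instead higher in Ccl7 (28.5 CPM in Il12b-led, 169 CPM in Mmp13-led and 26.0 CPM in other gated macrophages), Ccl12 (19.5, 125 and 27.8 CPM), Il1a (275, 381 and 174 CPM) and Il6 (16.5, 54.4 and 31.1 CPM). Ccl7 and Ccl12 thus stood at about the level of the other macrophages in the Il12b-led cells, and in the Mmp13-led cells they rested partly on the single cells given above. High Ccl7 was not confined to Mmp13-led cells. It stood at 430 CPM (79 UMIs) in the 10 Cd207-led cells, and had 0 UMIs in the 18 Itgb8-led cells.

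Several genes stood at like levels in both sets. Rapgef2 stood at 1267 CPM in Il12b-led cells, 1256 CPM in Mmp13-led cells and 650 CPM in other gated macrophages, and Rnf180 at 853, 904 and 405.4 CPM. The ratio of Il12b-led to Mmp13-led cells was 1.01 (0.934 to 1.09) for Rapgef2 and 0.943 (0.859 to 1.04) for Rnf180. Cxcl1 was higher in both sets than in the others, at 266, 354 and 114 CPM, but 1 Mmp13-led cell held 354 of the 873 Cxcl1 UMIs of its set. Itgb8-led cells held 176 CPM of Cxcl1 and Cd207-led cells 10.9 CPM (2 UMIs). Median surface CD9 was 770.5 UMIs on Il12b-led cells, 301 on Mmp13-led cells, 55.5 on the 18 Itgb8-led and 411 on the 10 Cd207-led cells, against 709 on the other gated macrophages. The upper quartile of the Il12b-led cells was 1791.75 UMIs, against 2531.5 in the others, and their Cd9 mRNA 195 CPM, against 226 CPM.

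**Figure D5:**
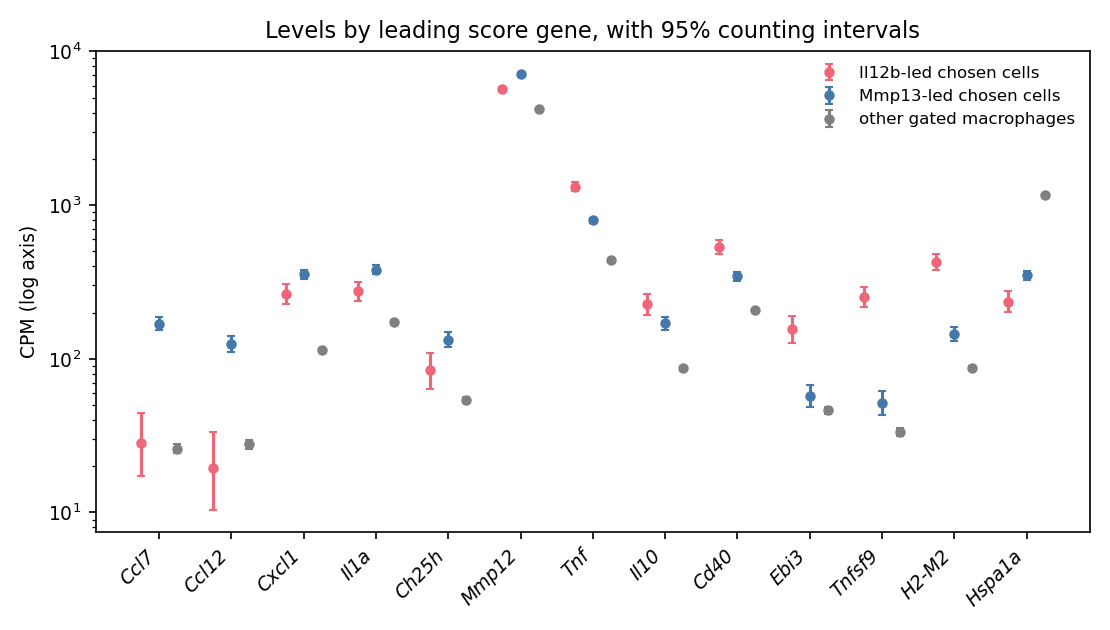
CPM on a log axis, with 95% counting intervals, of 13 genes in the 30 Il12b-led and 113 Mmp13-led chosen macrophages and the 1535 other gated macrophages. Among the sets drawn, Tnfsf9, Ebi3, H2-M2 and Tnf are highest in Il12b-led cells, Ccl7 and Ccl12 in Mmp13-led cells, and Hspa1a is lower in both than in the others.

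The chosen macrophages overlapped unevenly with other ranges cut from the same 1706 cells, each the 10% highest in its own genes. They shared 31 cells (18.1%, 12.7 to 24.7%) with the range high in Cx3cr1 and Tgfbr1 and 25 (14.6%, 9.69 to 20.8%) with that high in Pdpn, Il10 and Clec4e, of which 8 were Il12b-led and 17 Mmp13-led. They shared 20 cells (11.7%) with the interferon range, 18 of them Mmp13-led, 19 (11.1%) with the range high in Slc40a1 and Pparg and 10 (5.85%) each with those high in Gdf15, Osm and Gclc and in Pltp, Anxa1 and Clec4n. With the heat-shock range they shared 0 of 171 cells, which allows a share of up to 1.75%. All ranges hold 171 cells, so each percentage is the share of either range, and 10% is the share that ranges with no relation would have.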

How the data were processed

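The authors' Cell Ranger (8.0.1, per the file headers) gave the deposited UMI counts per cell of each gene and antibody tag, on mm10 per the submitters' processing notes. How barcodes were kept is not stated there. The labels' protocol names antibodies against CD9 and CD206, the design text CD9 alone, and the deposited counts hold both tags. Both libraries share all 2237 barcodes. The matrix held 32285 genes and 2 tags; 38 symbols named more than 1 gene ID, and the ID with more UMIs was used.

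Members and gene lists were chosen with earlier results of these data known. UMIs were summed over the cells of a group and scaled to CPM. Ratios carry exact conditional binomial intervals, CPM exact Poisson and shares Clopper-Pearson intervals (scipy 1.17.1), at 95%; with 1 sample no p-value was computed. The limit given beside a count of 0 is not the bound of such an interval but the level that 3 UMIs or 3 cells would give. A UMI is a molecule of 1 cell, and cells are not replicates. Genes were compared with at least 200 UMIs in the 2 sums, the score genes left out of the comparison.

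Named genes were the score genes, Cxcl1, Cd9, Mrc1 and the C1q genes, the 15 higher and 10 lower genes by the interval bound nearest to 1 (mitochondrial, ribosomal, endocrine and acinar genes left out, higher ones with a UMI in at least 10% of chosen cells), and from each of 29 lists up to 4 genes past 1.5-fold per direction; any other gene was named after its values were seen, and a gene that met the rule is not reported here. Where 1 cell held over 20% of a gene's UMIs the ratio is given without it too. Lymphoid cells had a C1q sum under 1000 CPM and at least 500 CPM of lymphocyte genes; class II-high cells had the same C1q limit, less of those genes and at least 5000 CPM of class II genes. Doublets were kept. The ratio step was tested on simulated data. Promoters and gene starts came from RefSeq. Alternatives varied the size of the chosen group, both gates, the score, scaling, the comparison cells and cell filters, including doublet removal by Scrublet (scanpy 1.11.5).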

Additional observations from a re-analysis of the deposited data

How the results depend on the processing

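No paired analysis was possible because the series holds 1 pooled sample. The comparison was repeated under 20 other settings, 5 of them chosen after the data were seen. Of 84 named genes past 1.5-fold, 24 stayed past it in the same direction under all 20, among them Cxcl1 (1.91 to 4.42), Ccl7 (2.34 to 5.86), Tnf (1.57 to 2.67), Rapgef2, Rnf180, Bcl2l1, Spp1, Ccr2 and Thbs1. No setting was made to leave out the single cell richest in Cxcl1 or in Ccl7. Without that cell the ratio was 1.84 for Cxcl1, under the range given here, and 3.36 for Ccl7. The settings that changed only the least UMIs or the fold could not change the ratio of a gene. They therefore count as passed, by construction, wherever a number of settings out of 20 is given. The median log2 ratio of all genes stayed between -0.09 and 0.01. The number of higher genes was 369 with 5% of cells chosen, 327 against the lower 50% of the score and 26 at a fold of 2. The number of lower genes was 412 with 20% of cells chosen, 1097 and 290 with at least 100 and 500 UMIs, and 198 at a fold of 2.

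With 5% of cells chosen, Ppy had a ratio of 0.178 and Pyy of 0.238. With 20% the ratios were 3.02 for Folr2, 1.56 for Timd4, 0.994 for Stmn1, 0.953 for Ppy and 0.820 for Pyy. With the score as a mean rank, which kept 83 of the 171 cells, they were 0.738 for Ccl12, 0.0791 for Mmp10, 0.945 for Cd274, 3.73 for Timd4, 1.04 for Igf1, 0.163 for Ppy and 0.378 for Pyy. With cells chosen on a random 50% of UMIs and compared on the rest, which kept 157 cells, they were 8.69 for Folr2, 0.224 for Ppy and 0.296 for Pyy. Ppy was at 0.931 as a mean over cells, and Folr2 at 7.26 without the cells richest in islet RNA. Without the cells highest in heat-shock RNA Ppy was at 0.152 and Pyy at 0.197, and without cells with stromal macrophage or monocyte RNA at 0.186 and 0.358. Among cells under the heat-shock median Mmp10 was at 0.968, Klf4 at 1.24 and Dnajb1 at 1.26. With Mmp13 left out of the score the ratios were 0.432 for Ccl12, 0.872 for Ccl4, 0.935 for Ccl9, 0.962 for Tlr3, 3.67 for Timd4, 0.625 for Cmpk2, 0.924 for Gbp5, 0.655 for Rsad2, 0.539 for Stmn1, 0.196 for Ppy and 0.262 for Pyy. With Il12b left out they were 7.13 for Folr2 and 0.427 for Mmp10. The cause was not tested in any of these.

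Surface CD9 and CD206 were lower on the chosen cells under every setting that changed the cells compared. The settings that changed only the least UMIs, the fold, the scaling or the averaging over cells could not change these ratios. The ratio of mean CD9 UMIs was 0.558 with 5% of cells chosen, 0.731 with 20%, 0.540 at 10000 RNA UMIs or more, 0.577 ranked within depth bins, 0.422 by mean rank, 0.515 by a random 50% of UMIs, 0.494 against the lower 50%, 0.558 without doublets, 0.482 without islet RNA-rich cells, 0.507 without heat-shock-high cells, 0.469 under the heat-shock median, 0.529 without stromal or monocyte RNA, 0.553 without Mmp13 and 0.516 without Il12b in the score. That of CD206 was 0.571 with 5%, 0.590 with 20%, 0.427 by mean rank, 0.486 by a random 50% of UMIs, 0.388 against the lower 50%, 0.475 without islet RNA-rich cells, 0.481 without heat-shock-high cells, 0.388 under the heat-shock median, 0.722 without stromal or monocyte RNA and 0.608 without Mmp13. Scrublet's own threshold marked 7 cells, under 0.5%, so the 39 highest scores were removed instead, 1 of them a chosen macrophage. Counts under 200 UMIs, the use of 1 pooled sample and free RNA, which was not subtracted, limit the scarce genes.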
